A study of Mus musculus with 10 samples.

Results

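The 8 genes described here write, copy and remove cytosine methylation in DNA: the maintenance genes Dnmt1 and Uhrf1, the de novo methyltransferases Dnmt3a and Dnmt3b, the TET dioxygenases Tet1, Tet2 and Tet3, and the glycosylase gene Tdg. They were taken by name, and all 8 were found among the 51717 genes left after the estimated reads of annotated transcripts were summed per gene. All 8 were also among the 12381 genes with enough reads to be tested. In GENCODE M21 on GRCm38 the genes on the plus strand were Uhrf1 (chr17:56303321-56323486), Dnmt3a (chr12:3806007-3914443), Dnmt3b (chr2:153649450-153687730) and Tdg (chr10:82629828-82650799). On the minus strand lay Dnmt1 (chr9:20907209-20959888), Tet1 (chr10:62804570-62908996), Tet2 (chr3:133463679-133545139) and Tet3 (chr6:83362373-83459084). RNA came from CD45.2+ granulocyte-macrophage progenitors (GMPs), the donor-derived marrow cells that give rise to neutrophils and monocytes. They were sorted from bone marrow, with male sex and the strain C57Bl6/N given in the labels and the genotypes ROSA26 CreER+/- for the 5 WT samples and Mpc2fl/fl; ROSA26 CreER+/- for the 5 recent KO samples. Mpc2 encodes a subunit of the mitochondrial pyruvate carrier. All mice of both groups ate tamoxifen chow for 2 wk and were taken at its end, so the WT cells also carried CreER and met tamoxifen. Per the study's methods the animals were irradiated CD45.1 recipients of CD45.2 donor marrow mixed with CD45.1 marrow, so the labelled strain is not that given for the recipients. CreER was expressed from the broadly active ROSA26 locus, and the ages of the mice are not given in the sources used here. Each WT sample came from a single animal, whereas GMPs of 2 mice were combined for each recent KO sample, 10 mice in all, so the spread within the recent KO group was already averaged over pairs.

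DNA methylation in mammals sits mostly on the cytosine of CG dinucleotides (CpGs). DNMT1, brought to newly replicated DNA by UHRF1, copies methylation onto the daughter strand, and DNMT3A and DNMT3B place it on unmethylated CpGs. TET enzymes use 2-oxoglutarate and oxygen to oxidize 5-methylcytosine, and TDG cuts out the most oxidized forms so that base excision repair can restore cytosine. In blood, DNMT3A and TET2 are known as genes that are often mutated in clonal hematopoiesis and myeloid leukemia. The comparison asked whether transcripts of these genes changed immediately after Mpc2 was deleted.

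The samples held 14133706 to 19745405 estimated reads in the WT group and 14033776 to 19658346 in the recent KO group. Mpc2 itself measured 17.1 to 43.9 normalized CPM (reads scaled to the library's total) in recent KO samples against 60.9 to 117 in WT samples, which did not overlap (log2 fold change −1.46, SE 0.24, edgeR quasi-likelihood test, adjusted p = 0.0156). Whole-gene reads of Mpc2 include exons outside the floxed exon. The 14 GMP markers, among them Mpo, Elane and Irf8, summed to 54520 to 95217 CPM in recent KO samples against 93182 to 130834 CPM in WT samples. Mpo and Elane, with WT means of 61005 and 24646 CPM, carried most of this sum, so it says little about the less abundant markers. Of the 14, 9 had an unadjusted p below 0.05 by edgeR, beside 10.2% of all tested genes, and the smallest adjusted p was 0.107. Not all of the 14 were lower: the log2 fold change was above 0 for 3, at most 0.25 for Cd34, and Cebpa was close to level (−0.04). The 8 macrophage markers summed to 17.4 to 38.0 CPM in WT and 42.1 to 76.9 CPM in recent KO samples. Of these, 3 were called higher, C1qa, C1qb and C1qc, beside 0.121% of all tested genes. Erythroid and megakaryocyte markers summed to 20.1 to 40.2 and 34.8 to 120 CPM, late neutrophil markers to 113 to 424 and 106 to 747 CPM, basophil and mast cell markers to 153 to 289 and 201 to 353 CPM, and stem and multipotent markers to 56.9 to 63.4 and 58.0 to 82.7 CPM. Of 8 lymphoid markers only Vpreb1 had enough reads to be tested. The part of these marker shifts in the values below was not tested. In such bulk samples fewer cells of a type and less RNA per cell cannot be told apart.

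Promoter sequence is shown because reads of several of the 8 genes were assigned to transcripts from more than 1 annotated start, and the starts differed in CpG content. Use of the starts was not measured, and the main start of Dnmt1 means that of its transcript with the highest TPM. RefSeq windows of 300 bases on GRCm38.p6, from 250 bases before to 50 bases after a start, numbered 13 for the 8 genes, and every gene had at least 1. The median window among all 32851 mouse windows held 7 CpGs. The window of the main Dnmt1 start, on the minus strand of chromosome 9, held 12 CpGs, at percentile 60.4, and the start upstream of it held 2, at percentile 14.1. For Dnmt3a, on the plus strand of chromosome 12, the start of the long transcript held 46 CpGs (percentile 98.4) and the internal start of the short transcripts held 18 (percentile 70.3). The Tet2 window, on the minus strand of chromosome 3, held 57 CpGs and stood at percentile 99.8. These 5 windows are printed 5′ to 3′ on the gene's strand, with every CpG in capitals.
Dnmt1, main start, chr9:20952930-20953229: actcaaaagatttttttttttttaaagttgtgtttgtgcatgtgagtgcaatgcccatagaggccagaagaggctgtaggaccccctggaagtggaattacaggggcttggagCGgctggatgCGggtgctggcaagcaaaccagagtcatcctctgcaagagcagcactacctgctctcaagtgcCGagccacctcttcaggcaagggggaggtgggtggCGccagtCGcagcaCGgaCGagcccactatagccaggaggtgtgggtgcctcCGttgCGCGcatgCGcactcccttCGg
Dnmt1, upstream start, chr9:20959839-20960138: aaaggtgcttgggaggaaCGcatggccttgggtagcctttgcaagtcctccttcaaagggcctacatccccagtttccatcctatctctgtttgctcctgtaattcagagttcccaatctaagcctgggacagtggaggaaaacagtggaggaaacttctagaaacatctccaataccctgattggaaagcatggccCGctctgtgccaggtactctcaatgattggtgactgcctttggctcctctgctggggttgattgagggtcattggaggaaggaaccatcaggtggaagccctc
Dnmt3a, long transcript, chr12:3806730-3807029: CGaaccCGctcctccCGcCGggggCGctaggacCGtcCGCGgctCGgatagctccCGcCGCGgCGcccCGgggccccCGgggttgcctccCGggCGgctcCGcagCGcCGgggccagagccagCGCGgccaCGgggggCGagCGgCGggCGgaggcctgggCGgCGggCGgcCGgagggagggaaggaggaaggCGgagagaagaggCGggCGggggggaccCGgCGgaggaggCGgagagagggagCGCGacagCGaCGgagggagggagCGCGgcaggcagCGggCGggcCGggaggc
Dnmt3a, short transcripts, chr12:3891494-3891793: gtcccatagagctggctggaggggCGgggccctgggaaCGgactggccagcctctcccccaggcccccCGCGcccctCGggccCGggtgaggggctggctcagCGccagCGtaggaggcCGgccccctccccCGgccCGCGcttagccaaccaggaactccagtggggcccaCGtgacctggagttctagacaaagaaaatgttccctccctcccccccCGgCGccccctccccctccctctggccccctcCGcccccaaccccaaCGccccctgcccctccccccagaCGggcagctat
Tet2, chr3:133544341-133544640: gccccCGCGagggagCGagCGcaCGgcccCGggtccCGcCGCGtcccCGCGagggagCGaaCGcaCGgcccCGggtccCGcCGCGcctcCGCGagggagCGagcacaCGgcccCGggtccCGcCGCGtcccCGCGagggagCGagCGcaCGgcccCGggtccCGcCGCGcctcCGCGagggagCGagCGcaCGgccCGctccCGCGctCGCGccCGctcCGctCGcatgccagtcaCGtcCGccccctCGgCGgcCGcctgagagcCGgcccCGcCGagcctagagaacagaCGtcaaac

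The other windows held 30 CpGs for Dnmt3b, 26 for Tdg, 22 for Tet3 and 17 for Tet1. Dnmt1 had another window with 33 CpGs, Dnmt3a another with 47, and the 2 windows of Uhrf1 held 12 and 33. Salmon's estimates were uneven between transcripts of different starts. The transcript from the main Dnmt1 start, Dnmt1-201, stood at 8.43 to 10.2 TPM (transcript abundance scaled to length and to a common total) in WT samples and Dnmt1-202, from the CpG-poor upstream start, at 2.67 to 4.61 TPM. In the annotation they differ almost only in their first exons, so most of their reads match both and were divided between them by Salmon's model. Dnmt1-203, whose start lies in the window with 33 CpGs, was assigned 0 to 0.243 TPM in WT samples. This value was set by the same model and does not measure use of that start. TTTCCCGC, TTTCGCGC, TTTGCCGC and TTTGGCGC, the forms of the E2F motif searched on both strands, occurred in 2.26% of all windows. Among the 13 windows of these genes they occurred in 2, with 2 matches at the start of Dnmt1-203 and 1 at the second start of Uhrf1. A match is a description of the letters and not a measured site.

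The maintenance genes Uhrf1 and Dnmt1 and the glycosylase gene Tdg were the most abundant of the 8 in WT GMPs. Levels between genes are given as TPM summed over transcripts, a scale per transcript length. Uhrf1 measured 26.9 ± 1.59 TPM (SD, n = 5), Tdg 17.3 ± 1.91 TPM and Dnmt1 14.3 ± 0.50 TPM. Among all genes tested these lay at percentiles 77.1, 70.2 and 67.2 of mean WT TPM. Dnmt3a followed at 4.50 ± 1.11 TPM, Tet2 at 4.38 ± 0.756, Dnmt3b at 3.68 ± 0.848, Tet1 at 2.13 ± 0.624 and Tet3 at 1.30 ± 0.362 TPM. Uhrf1 stood above Tdg, and Dnmt1 above Dnmt3a, without overlap between the 5 WT samples. The ranges of Tdg and Dnmt1 overlapped, although Tdg was the higher in each of the 10 samples. Dnmt3a, Tet2 and Dnmt3b also overlapped. Dnmt3a exceeded Dnmt3b in each of the 5 WT samples, by 1.06 to 1.31 times, whereas the place of Tet2 was not settled, since Dnmt3a exceeded it in 2 of 5 WT samples and it exceeded Dnmt3b in 3 of 5.

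**Figure D1:**
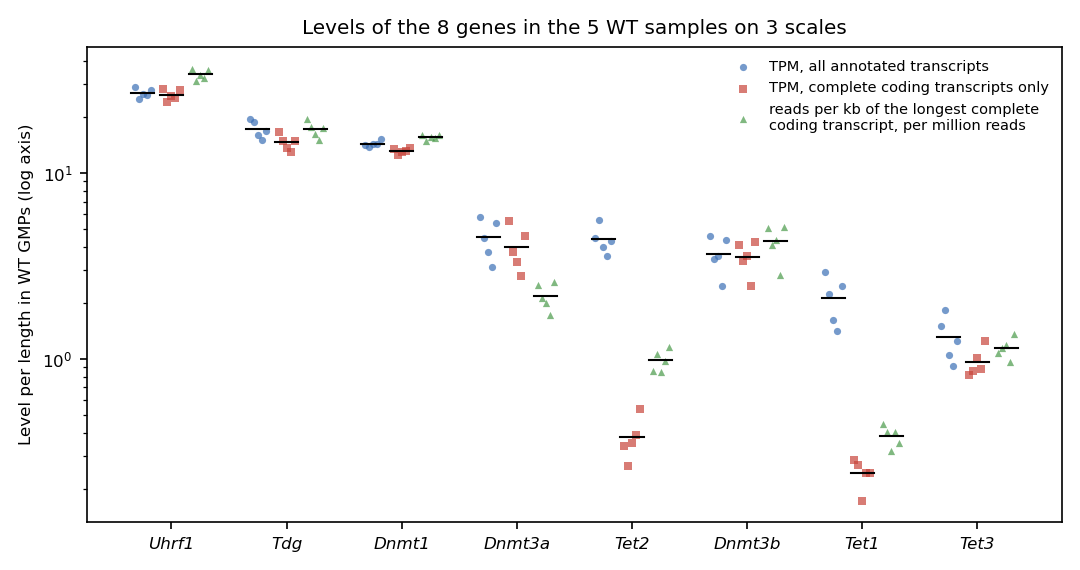
Levels of the 8 genes in the 5 WT samples (points) with their mean (bar) on 3 scales per transcript length, on a log axis. Uhrf1, Tdg and Dnmt1 lead on every scale, whereas Tet2 falls from 4.38 TPM over all transcripts to 0.377 TPM over complete coding transcripts and Tet1 from 2.13 to 0.242 TPM.

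The order of the TET genes depended on which transcripts were counted. Complete coding transcripts, those annotated from start to stop codon, made up 97.7% of summed TPM for Uhrf1, 96.7% for Dnmt3b, 91.5% for Dnmt1, 88.7% for Dnmt3a, 84.7% for Tdg and 78.6% for Tet3 in WT samples. For Tet1 they made up 11.9% and for Tet2 8.91%. On complete coding TPM, a scale added after the data were seen, Tet3 led the TET genes at 0.959 ± 0.173 TPM, above Tet2 at 0.377 ± 0.101 TPM without overlap in WT samples. Tet1 stood at 0.242 ± 0.0428 TPM and overlapped Tet2. On this scale Dnmt1, at 13.1 TPM, exceeded the 3 TET genes together by 6.73 to 9.42 times in the WT group and by 8.09 to 10.3 times in recent KO samples. Tet3 held 56.6% to 65.7% of the complete coding TET TPM in the WT group and 51.0% to 61.9% in recent KO samples, which overlapped. Reads per kilobase of the longest complete coding transcript gave the same TET order, with 1.14 for Tet3, 0.979 for Tet2 and 0.384 for Tet1. On this scale Tet3 and Tet2 overlapped, with Tet3 the higher in 4 of 5 WT samples. The same scale put Dnmt3b at 4.28 above Dnmt3a at 2.18 without overlap.

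Short annotated transcripts accounted for the gap between scales. Tet2-201, the full-length coding transcript of 9179 bases, took 49.9% of Tet2 reads in WT samples but 8.91% of its TPM. Tet2-202, a noncoding transcript of 484 bases, took 6.67% of the reads and 53.2% of the TPM. Whether such short models were transcribed as annotated, or were assigned reads of full-length or unspliced RNA, cannot be told from these estimates. This limits every TPM value of Tet1 and Tet2, whether summed over all transcripts or over complete coding ones. Tet2-202 measured 3.08, 3.27, 1.93, 1.41 and 2.19 TPM in WT samples 1 to 5 and 5.15, 9.18, 1.47, 5.31 and 0.808 TPM in recent KO samples 1 to 5. Recent KO samples 1, 2 and 4 were above every WT sample and recent KO sample 5 below every WT sample. Tet2-201 varied less, with 0.266 to 0.539 TPM in WT and 0.355 to 0.439 TPM in recent KO samples. For Tet1, the 414-base fragment Tet1-207 held 57.1% of WT TPM from 4.05% of the reads, and the 14369-base coding transcript Tet1-206 held 11.9% of TPM from 81.2% of the reads.

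Reads of Dnmt3a were assigned to a long and a short coding form. DNMT3A1, the long protein, and DNMT3A2, which lacks the first part of the protein, are known to come from these separate starts. Dnmt3a-201, the long transcript of 9685 bases, measured 0.843 to 1.13 TPM in WT and 0.852 to 1.30 TPM in recent KO samples. Dnmt3a-205, a short transcript of 2328 bases from the internal start, measured 1.95 to 4.62 and 2.18 to 4.07 TPM. The short form thus held 66.3% of Dnmt3a TPM in WT samples and 56.5% in recent KO samples (exact two-sided permutation p = 0.119). Of the reads it took 38.0% and 34.2%, and the long form 55.5% and 53.3%. Both shares depend on how Salmon's model divided the reads, which was not tested.

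**Figure D2:**
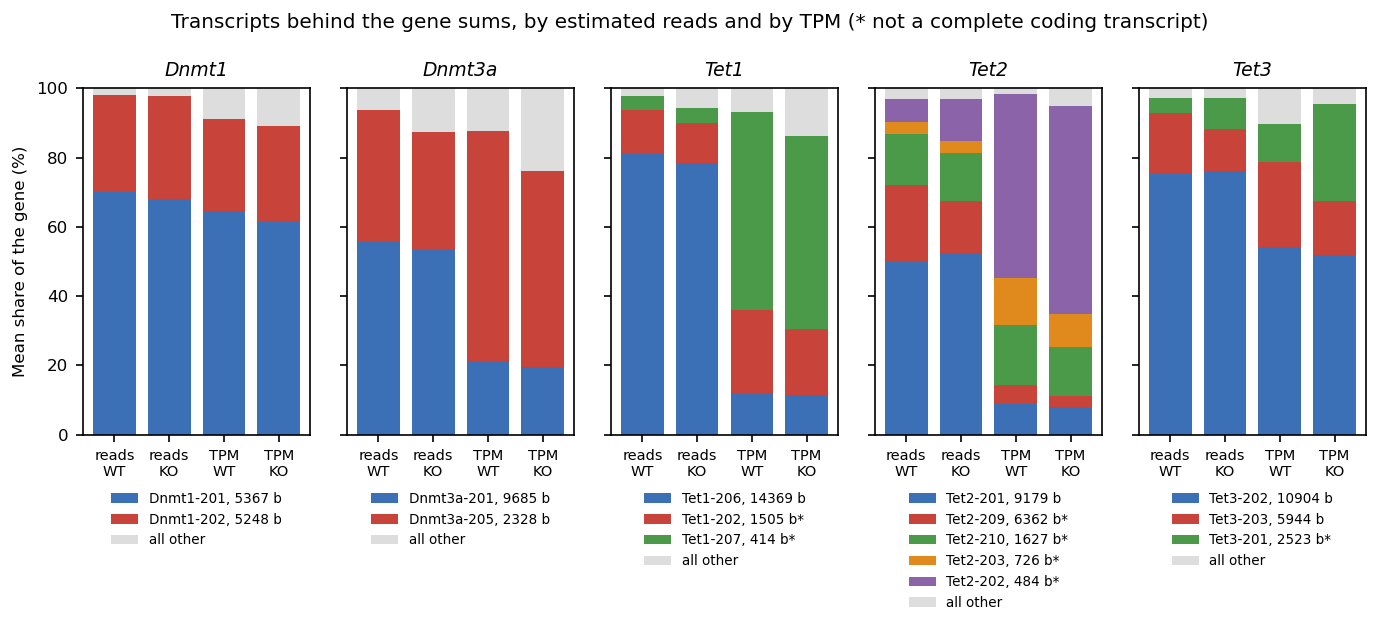
Mean share of each transcript (%) in the estimated reads and in the TPM of its gene, for WT and recent KO samples (n = 5 each), with transcript lengths in bases (b). Tet2-202 takes 6.67% of Tet2 reads and 53.2% of Tet2 TPM in WT samples.

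None of the 8 genes was called between recent KO and WT samples, and none of the 8 separated the groups. By edgeR's quasi-likelihood test 0.331% of all tested genes were called, 0.121% higher and 0.21% lower in recent KO samples, and 2.43% did not overlap between groups. In the same test 1 of the 8, Dnmt3b, had an unadjusted p below 0.05, as had 10.2% of all tested genes. DESeq2 also called 0 of the 8 with 1 below an unadjusted 0.05, and limma on log2(TPM + 1) called 0 with 0 below it. Over all genes DESeq2 called 156 of 27909 and limma on log2(TPM + 1) 25 of 10333. Their shares of all genes below an unadjusted 0.05 are not given here. The 8 split evenly, with 4 fold changes above and 4 below 0. Their median log2 fold change was 0.02, beside −0.0018 for all genes tested, and the median size of the change was 0.0837, beside 0.105. By edgeR on reads the 95% intervals of 7 genes excluded a change of 1.5-fold in either direction, and those of all 8 excluded a 2-fold change. This holds for that scale only. No intervals were taken from the fits scaled to transcript length, where the log2 fold change of Tet2 was 0.37 to 0.47.

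**Figure D3:**
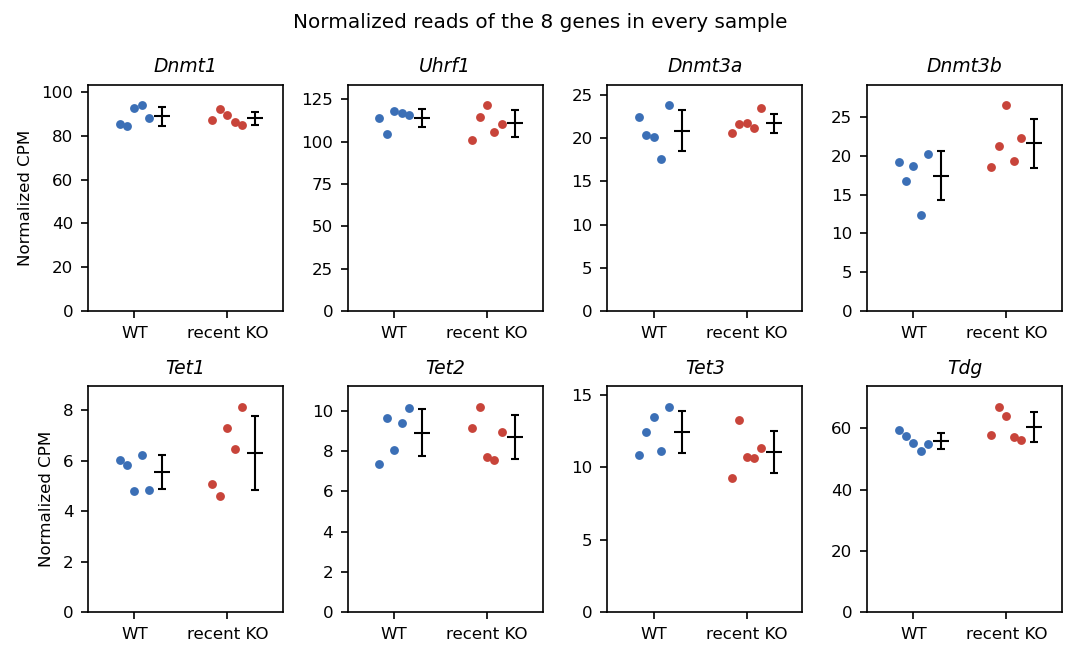
Normalized CPM of each of the 8 genes in every WT (blue) and recent KO (red) sample, with the group mean and SD beside the points (n = 5 per group) and axes from 0. The groups overlap for every gene, and for Dnmt3b 3 of 5 recent KO samples lie above the highest WT sample.

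Maintenance genes were close to level. Dnmt1, the copying methyltransferase, measured 85.4, 84.6, 92.9, 94.0 and 88.1 CPM in WT samples 1 to 5 and 87.4, 92.1, 89.3, 86.3 and 84.7 CPM in recent KO samples 1 to 5. Every recent KO value lay within the WT range. The fold was 0.989 (95% interval 0.911 to 1.07, adjusted p = 0.954 by edgeR), the narrowest interval of the 8. Uhrf1, which recognizes the hemimethylated DNA left by replication and recruits DNMT1, measured 114, 105, 118, 117 and 115 CPM in WT and 101, 115, 122, 106 and 111 CPM in recent KO samples. Recent KO sample 1 was below and recent KO sample 3 above all WT samples. Its fold was 0.973 (0.887 to 1.07, adjusted p = 0.884). The ratio of Uhrf1 to Dnmt1 TPM was 1.88 ± 0.105 in WT and 1.81 ± 0.167 in recent KO samples.

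Of the de novo genes, Dnmt3b had the smallest p of the 8. It measured 19.3, 16.7, 18.8, 12.4 and 20.2 CPM in WT samples 1 to 5 and 18.6, 21.3, 26.6, 19.4 and 22.3 CPM in recent KO samples 1 to 5. The lowest value was WT sample 4 and the highest recent KO sample 3, and 4 of 5 recent KO samples exceeded the WT median. The fold was 1.24 (1.01 to 1.51), a log2 fold change of 0.31 with an SE of 0.13, which did not pass after adjustment over all genes (unadjusted p = 0.0371, adjusted p = 0.448 by edgeR). An exact two-sided permutation test of the same values gave p = 0.0635, where 5 samples against 5 allow nothing below 0.00794. Without WT replicate 4 the unadjusted p was 0.0815, and without recent KO replicate 3 it was 0.114. The marker sums given above are for the same samples, and their part in the Dnmt3b values was not tested.

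Dnmt3a measured 22.5, 20.4, 20.1, 17.6 and 23.8 CPM in WT samples and 20.6, 21.6, 21.8, 21.1 and 23.5 CPM in recent KO samples. All recent KO values lay inside the WT range, and WT sample 4 was again the lowest. Its fold was 1.04 (0.912 to 1.18, adjusted p = 0.884 by edgeR). Dnmt3a and Dnmt3b varied together over the 10 samples, with Pearson's r = 0.78 and Spearman's rho = 0.77, 0.91 within WT and 0.52 within recent KO samples, and 0.58 without the 2 samples farthest from the median. Only over all 10 samples was this r clearly the highest of the 28 pairs among the 8 genes. Dnmt1 and Tdg gave 0.01 over all 10, but 0.75 without the 2 farthest samples and 0.97 within recent KO samples. Over all 10 samples Dnmt1 and Uhrf1 gave r = 0.60. Dnmt1 and Dnmt3a gave r = −0.58, the lowest, which was −0.02 without the 2 farthest samples. These values describe 10 libraries that share normalization and depth, and no test was made of them.

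The TET genes had the lowest mean CPM of the 8, with 66 to 237 reads per sample. Tet2 measured 7.34, 9.65, 8.07, 9.40 and 10.1 CPM in WT samples and 9.14, 10.2, 7.72, 7.55 and 8.97 CPM in recent KO samples. The groups covered nearly the same range, and the fold was 0.977 (0.810 to 1.18, adjusted p = 0.957 by edgeR). With summed TPM in place of reads its log2 fold change was 0.37 on log2(TPM + 1) and 0.42 on log2(TPM + 0.1), and with a transcript length offset 0.47, against −0.03 on reads. None of these passed (adjusted p = 0.664 to 0.701), and Tet2-202 moved with them: its mean went from 2.38 TPM in WT to 4.38 TPM in recent KO samples, and that of the whole gene from 4.38 to 6.48 TPM. The full-length Tet2-201 had a log2 fold change of 0.03 in the transcript test (SE 0.20, adjusted p = 0.998).

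Tet3 measured 10.9, 12.4, 13.5, 11.1 and 14.2 CPM in WT and 9.28, 13.3, 10.7, 10.7 and 11.3 CPM in recent KO samples. Of the recent KO samples 3 lay below the lowest WT sample. The fold was 0.890 (0.75 to 1.06, adjusted p = 0.676 by edgeR). Its direction was the same under every alternative run, as were those of Dnmt3a, Dnmt3b, Tet1 and Tdg. The log2 fold change of Tet3 was −0.17 on reads but −0.04 and −0.06 by limma on log2(TPM + 1) and log2(TPM + 0.1). Tet1 measured 6.02, 5.82, 4.81, 6.22 and 4.85 CPM in WT and 5.06, 4.62, 7.28, 6.45 and 8.14 CPM in recent KO samples. Of the recent KO samples 3 lay above all WT samples and 1 below, and the log2 fold change was 0.20 (SE 0.17, fold interval 0.892 to 1.47, adjusted p = 0.765).

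Tdg, the glycosylase that follows oxidation, measured 59.5, 57.6, 55.4, 52.8 and 54.8 CPM in WT samples and 58.0, 67.1, 64.2, 57.2 and 56.2 CPM in recent KO samples. All 5 recent KO samples exceeded the WT median, 2 of them every WT sample. The fold was 1.08 (SE of the log2 fold change 0.07, adjusted p = 0.624 by edgeR, exact permutation p = 0.119). Reads of Tdg could be shared with near-identical processed pseudogenes: Tdg-ps on chromosome 15 (98.7% identical over 2968 bases) held 1.82 to 28.0 estimated reads per sample and Gm9855 on chromosome 10 (99.2% over 1194 bases) 8.07 to 52.8, beside 679 to 1314 for Tdg. Glt8d2 overlaps the 3′ end of Tdg on the other strand and held 10 to 40.2 reads. Uhrf1 has a like copy, Gm5648, with at most 1 read, and other genes overlapping the 8 held at most 12 reads in any sample. Adding the copies left the Tdg and Uhrf1 calls as they were.

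**Figure D4:**
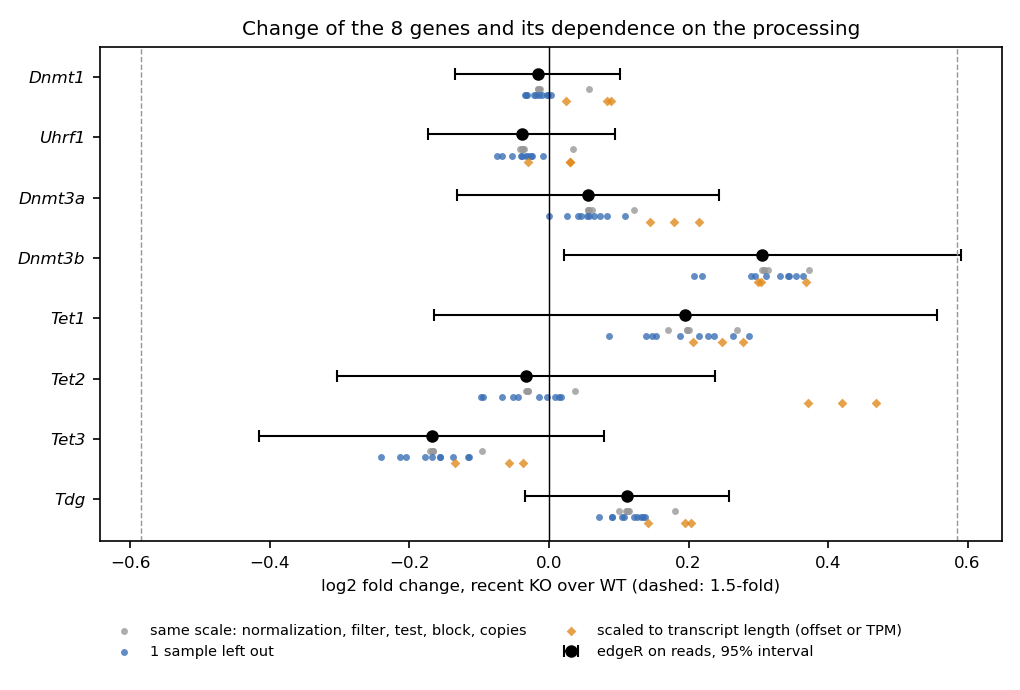
Log2 fold change between recent KO and WT samples for the 8 genes by edgeR on reads with its 95% interval (black), and the value under each alternative processing (grey, blue and orange). Only the Dnmt3b interval leaves out 0, with an adjusted p of 0.448, and the 3 Tet2 values scaled to transcript length lie at 0.37 to 0.47 against −0.03 on reads.

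Transcript forms of the 8 genes were not called either. Of 80 annotated transcripts matched, 53 had reads and 25 had enough to be tested, and edgeR called 0 of the 25, against 0.042% of all transcripts tested. The count with an unadjusted p below 0.05 was 1 of 25, against 6.15% of all transcripts tested. This was Dnmt3b-206, the leading Dnmt3b transcript with 65.4% of WT TPM (log2 fold change 0.41, SE 0.15, adjusted p = 0.71). Among 20 transcripts with a mean share of at least 10% of their gene, 1 share had an unadjusted exact permutation p below 0.05. A threshold of 0.05 would flag about 1 of 20 by chance, and shares were not tested over all transcripts. Tdg-210, an incomplete coding transcript of 971 bases, held 10.2% ± 4.63 of Tdg TPM in WT and 16.1% ± 2.03 in recent KO samples (exact permutation p = 0.0238 before adjustment over the 20). It took 2.78% and 4.53% of Tdg reads, and its own level was not called (adjusted p = 0.828 by edgeR).

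Genes that work with the 8 were taken as lists of partners, cofactors and neighbouring pathways, 126 genes of which 115 were tested. In these lists 1 gene was called, Bcat1, and 9 of 115 (7.83%) had an unadjusted p below 0.05, against 10.2% of all genes. DESeq2 called 2 of the 124 it tested, Bcat1 and Gadd45b, beside 156 of all 27909 genes. By limma on log2(TPM + 1) 0 of 109 were called with 11 at an unadjusted p below 0.05, beside 25 called of all 10333 genes. The median log2 fold change over the 115 was 0.0026. Bcat1, which moves the amino group of branched-chain amino acids onto 2-oxoglutarate, the cosubstrate of the TET enzymes, rose from 14.2 to 21.9 CPM in WT to 22.8 to 27.6 CPM in recent KO samples without overlap (log2 fold change 0.58, SE 0.11, adjusted p = 0.0468). This call lay close to the threshold: it was lost when any 1 of 8 samples was left out (adjusted p up to 0.15) and was kept without WT replicate 4 or recent KO replicate 2 (0.0017 and 0.0493).

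Among partners of the methyltransferases 0 of 12 tested genes were called and 0 had an unadjusted p below 0.05 by edgeR. They included Dnmt3l, the catalytically inactive cofactor of the de novo enzymes, Hells and Cdca7, which remodel chromatin for methylation, and Usp7. Pcna, the replication clamp that also binds DNMT1, had the smallest p (412 ± 18.2 CPM in WT, 445 ± 14.8 in recent KO samples, log2 fold change 0.11, adjusted p = 0.504 by edgeR), followed by Setd2, the histone methyltransferase whose mark recruits DNMT3 enzymes (0.18, adjusted p = 0.676). For Pcna 4 of 5 recent KO samples exceeded every WT sample, recent KO sample 4 only narrowly (438.0 against 437.8 CPM). Its exact two-sided permutation p was 0.0159 and its edgeR p 0.0579, both before adjustment. Permutation p-values of other list genes included 0.00794 for Bcat1 and 0.0238 for Psat1, Spi1 and Gadd45b. All 24 DNA replication genes were tested, with 0 called, 0 below an unadjusted 0.05 by edgeR and a median log2 fold change of 0.01, and Rrm2 stood next to Pcna (−0.14, adjusted p = 0.605).

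Of active demethylation and repair genes 0 of 14 were called and 1 had an unadjusted p below 0.05, beside 10.2% of all tested genes. That was Gadd45b, a stress-induced gene tied to demethylation, with 30.7 to 50.9 CPM in WT and 18.8 to 31.6 CPM in recent KO samples (log2 fold change −0.58, SE 0.15, adjusted p = 0.186). Besides DESeq2, edgeR without a filter on low counts called it. Polb, the repair polymerase, followed (−0.11, adjusted p = 0.782). Of TET partners 0 of 4 were called and 2 had an unadjusted p below 0.05, 50% of this short list beside 10.2% of all tested genes. These were Spi1, which encodes the myeloid transcription factor PU.1 (369 ± 36.6 CPM in WT, 311 ± 26.3 in recent KO samples, log2 fold change −0.25, adjusted p = 0.270), and Cxxc5, a CpG-binding protein (14.4 ± 2.47 and 19.4 ± 3.43 CPM, 0.43, adjusted p = 0.272). Of 10 methyl-CpG readers 0 were called, 1 had an unadjusted p below 0.05, and Mbd1 (−0.20, adjusted p = 0.470) and Zbtb33 (0.41, adjusted p = 0.564) had the smallest p.

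The supply of cofactors was examined in the same way. In the list taken for the S-adenosylmethionine cycle, which makes the methyl donor, 0 of 8 genes were called. An unadjusted p below 0.05 was found for 2 of the 8 (25%), beside 10.2% of all tested genes. These were the Ahcy-like gene Ahcyl2 (log2 fold change −0.41, adjusted p = 0.401), listed by likeness to Ahcy and not by a measured part in the cycle, and Ahcy. Ahcy encodes the enzyme that clears the inhibitory product S-adenosylhomocysteine (132 ± 4.85 CPM in WT, 149 ± 16.1 in recent KO samples, 0.17, adjusted p = 0.428). Mat2a, which makes S-adenosylmethionine outside the liver, had 237 to 296 CPM in WT samples, and recent KO samples overlapped this range with 215 to 276 CPM. Among genes of 2-oxoglutarate, succinate and fumarate, Bcat1 was the 1 of 24 called. By edgeR 3 of the 24 (12.5%) had an unadjusted p below 0.05, beside 10.2% of all tested genes. After Bcat1 these were Psat1, which makes 2-oxoglutarate in serine synthesis (0.17, adjusted p = 0.330), and Idh1. Idh1 went the other way, with 165 to 204 CPM in WT and 135 to 179 CPM in recent KO samples (−0.22, adjusted p = 0.416). Other 2-oxoglutarate dioxygenases on DNA and histones gave 0 of 21 called and 0 below an unadjusted 0.05 by edgeR, led by the histone demethylase genes Kdm3b (−0.14, adjusted p = 0.586) and Kdm5b (−0.14, adjusted p = 0.657). Genes with too few reads to test included Dnmt3c, Cxxc4 and Wt1, of which Dnmt3c had 0 reads in all 10 samples.

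**Figure D5:**
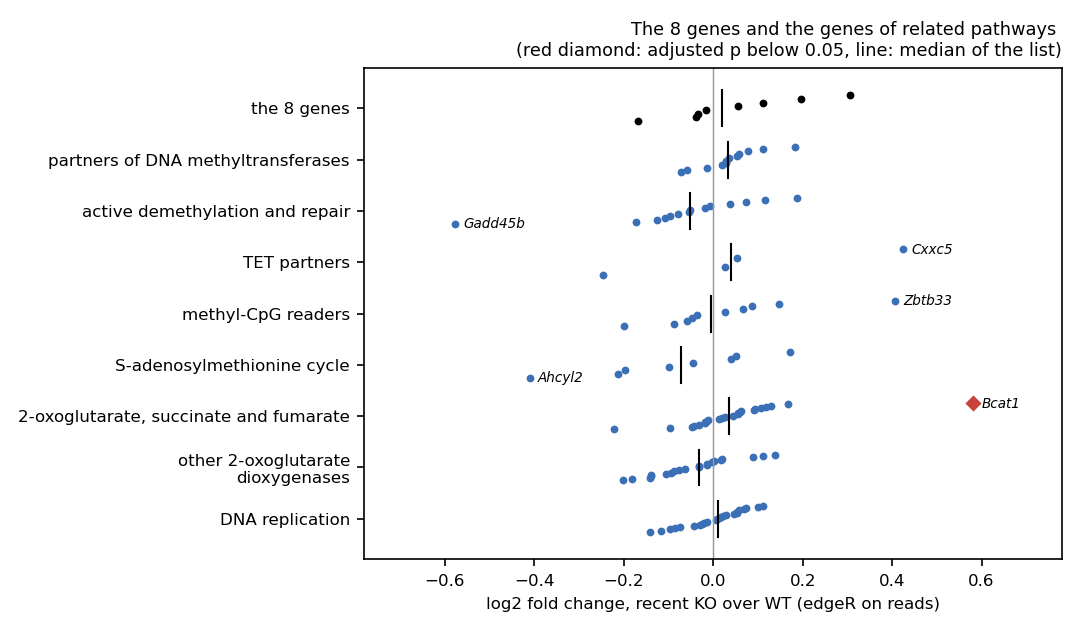
Log2 fold change between recent KO and WT samples (edgeR on reads) for the 8 genes and for the tested genes of each related list, with the list median as a line. Bcat1 is the 1 gene with an adjusted p below 0.05, and the medians of all lists lie between −0.07 and 0.04.

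Likeness of pattern was described for 1 gene of each role, as the highest Pearson's r of log2 CPM over the 10 samples among 7146 tested genes with at least 10 CPM on average. Dnmt1 was most like Actb (r = 0.92), Nab1 (0.89) and Eif3b (0.88). Dnmt3a was most like Pkib (0.91), Vav3 (0.89) and 5530601H04Rik (0.89). Tet2 was most like Arl16 (0.86), Limk2 (0.85) and Mettl6 (0.84), and Tdg was most like Mfng (0.96), Farsa (0.94) and Tprn (0.93). None of these 12 genes was one of the 8, of which Tet1 and Tet2 lay below the 10 CPM minimum and could not be named. None was called between groups either, with adjusted p from 0.502 to 0.979 by edgeR. Each was chosen for likeness to a gene that was not called, so this was largely set by the choice. Without the 2 samples farthest from the median of each gene the 12 r values lay between 0.69 and 0.88. As the highest of 7146 values over 10 libraries that share depth and normalization, they are descriptions.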

How the data were processed

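The authors quantified paired-end SMARTseq reads with Salmon (version 1.5.1 per the labels) against Gencode M27 transcripts. They deposited Salmon's estimated counts per transcript and sample, without normalization, and deposited the matching TPM. SMARTseq cDNA is amplified without molecular identifiers and without strand. A further deposited table holds the authors' own DESeq2 comparison (fold changes and p-values, version 2.11.40.6 of the tool per the labels) and was not used. The other per-sample columns were all mapped.

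Transcripts were matched by identifier to GENCODE M21 on GRCm38, since no M27 annotation was used here. Of 140789 transcripts 137161 (97.4%) matched, and the 3628 left out held 0.348% to 0.390% of reads. Estimated counts were summed per gene and rounded. edgeR 4.0.16 in R 4.3.3 tested recent KO against WT (TMM, filterByExpr at a minimum count of 10, glmQLFTest, no covariates, Benjamini-Hochberg over 12381 genes at 0.05), and transcripts in the same way over 26185. Intervals and SEs came from the F statistic. A count of 3 equalled 0.147 to 0.233 CPM, and intervals cover these samples only. The code was tested on simulated data. Copies were found with BLAST 2.17.0 (at least 95% identity over 300 bases). Alternatives used RLE, library size, no filter, DESeq2 1.42.0, a length offset, limma 3.58.1 on log2(TPM + 1) or log2(TPM + 0.1) for mean TPM of at least 1, a replicate block, summed copies and each sample left out. Python 3.11.15, numpy 2.4.6, pandas 2.3.3, scipy 1.17.1 and matplotlib 3.10.9 were used.

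The 8 genes and all lists were chosen with earlier results of these data known. Genes named were the 8, Mpc2, called list genes, the 2 smallest p-values of each list, the 3 most alike genes of Dnmt1, Dnmt3a, Tet2 and Tdg, and copies or overlaps with reads. Dnmt3l, Hells, Cdca7, Usp7, Mat2a, Idh1, the named markers and untested genes were added as examples.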

Additional observations from a re-analysis of the deposited data

Results flagged for a closer look

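Dnmt3a TPM in recent KO replicate 1 was 3.67, below the 5.20 to 5.78 of the other 4 recent KO samples, a gap of 0.727 of the group's range against Dixon's 95% critical value of 0.71 for 5 samples. It was the only flag among 48 groups of values (8 genes on 3 scales in both conditions), of which 2.4 would be flagged by chance at 1 in 20. In normalized CPM the same sample had 20.6 beside 21.1 to 23.5 in the others.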

How the results depend on the processing

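Of 146 alternative log2 fold changes of the 8 genes, 131 kept the direction and side of the threshold, 15 reversed and 0 passed the threshold (smallest adjusted p 0.361). Dnmt1 (−0.02) became 0.0568 with library size only, 0.0249 with the length offset, 0.0835 and 0.0886 by limma on log2(TPM + 1) and log2(TPM + 0.1), and 0.0032 without WT replicate 4 (leaving out samples gave −0.034 to 0.0032). Uhrf1 (−0.04) became 0.034 with library size only and 0.0295 and 0.0303 by limma. Tet2 (−0.03) became 0.0371 with library size only, 0.47 with the length offset, 0.37 and 0.42 by limma, and 0.0174, 0.0089 and 0.0136 without WT replicate 5, recent KO replicate 3 or recent KO replicate 4 (leaving out samples gave −0.0977 to 0.0174). The median of all genes also moved, to 0.0686 with library size only and to 0.0481 and 0.0541 by limma, and Uhrf1 stayed below it under all 3 settings. The cause was not tested.

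Genes called numbered 41, and 206 without a filter, 156 with DESeq2, 25 and 24 by limma, 20 with the replicate block and 25 to 91 with 1 sample left out (26 without WT replicate 3, 91 without recent KO replicate 2, 25 without recent KO replicate 3 and 25 without recent KO replicate 4). Called pathway genes numbered 1, and 2 without a filter and with DESeq2, 0 with the length offset, 0 by either limma fit, 0 with the replicate block, and 0 to 1 with 1 sample left out. The replicate numbers only name samples: same-numbered samples gave correlations of −0.177 to 0.0576, and the replicate block changed no call among the 8 genes or their transcripts. Mean WT levels on reads per kilobase of the longest coding transcript were 15.6 for Dnmt1, 33.9 for Uhrf1, 2.18 for Dnmt3a, 0.384 for Tet1 and 0.979 for Tet2. On complete coding TPM, chosen after seeing the data, they were 13.1 for Dnmt1, 0.242 for Tet1, 0.377 for Tet2 and 14.6 for Tdg. The TET genes rested on 66 to 237 reads per sample.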
